A study of Mus musculus with 92 samples.

Results

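The control blastomeres of the study were single cells of wild-type C57BL/6N mouse embryos at the 8-cell stage that had received a negative control (NC) by microinjection as zygotes. They were chosen by the name of their column in the deposited count table, and no measured value was used. The table held 22 of the 23 NC cells named in the labels, among 82 cells with a column and 92 in the labels, and the other cells were not analysed here. The 22 cells came from 3 mouse ids, with 8, 8 and 6 cells in mouse ids 1, 2 and 3.

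The study placed microRNAs of the let-7 family (let-7d, let-7e), mi699a-5p (spelled as in the labels) or the negative control into zygotes, and sample titles mark the embryos as IVF. Each blastomere was sequenced by Smart-seq2, which amplifies full-length cDNA of a single cell and adds no molecular identifiers, so read counts include amplification copies. The labels do not say what the negative control was, or whether a mouse id stands for an embryo, a dam or a pool. Cells that had not been injected were not analysed here, so all values describe injected control embryos, and no comparison between treatments was made.

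A mouse zygote begins with RNA and protein stored by the oocyte, and soon transcribes its own genome while the stored RNA is cleared. At the 8-cell stage the blastomeres flatten against each other, a step known as compaction, and gain an outer apical surface. Outer cells later form trophectoderm, the precursor of the placenta, under TEAD4 and the Hippo pathway, while inner cells form the inner cell mass, which gives the embryo proper and the primitive endoderm. Cleaving embryos live mainly on pyruvate and lactate, and their use of glucose rises towards the blastocyst.

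Levels are given as CPM, the reads of a gene per 1000000 reads of the cell, averaged over the cells of a mouse id and then over the 3 mouse ids, with the SD over mouse ids (n = 3). Levels of transcripts were compared between genes as CPM per kilobase (kb) of merged exon length, and plain CPM was used for shares of reads, for thresholds on read abundance and for a gene across cells. A gene counted as detected in a cell with at least 1 read. The table listed 7886 genes, each with at least 10 reads in 20 or more of the 82 cells, and genes without a row were not analysed here.

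Each cell carried between 1635385 and 3262799 reads in the listed genes, and between 6300 and 7336 genes were detected, with a mean of 6965 ± 128. Ribosomal RNA rows took between 6.28% and 24.0% of a cell's reads. Pearson's r of log2(CPM + 1) between cells had a mean of 0.622 over the 71 pairs within a mouse id and 0.593 over the 160 pairs across mouse ids. No column repeated another, since the most similar of the 231 pairs had a chi-square of 38.5 per gene.

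Mouse id 2 held cells of both sex-linked patterns. Its cells A2, F2, G2 and H2 had Xist, the RNA that coats the inactive X chromosome, at 334, 242, 121 and 191 CPM, and a summed level of the Y-linked genes Eif2s3y, Ddx3y, Usp9y and Kdm5d of at most 1.46 CPM. Its cells B2, C2, D2 and E2 had Y-linked sums of 109, 138, 121 and 156 CPM, and Xist was read in 1 of them. All cells of mouse ids 1 and 3 had Y-linked reads, with sums of 91.7 to 333 CPM in mouse id 1 and 125 to 319 CPM in mouse id 3. Xist in those cells was at most 11.6 CPM (cell C3). Values of mouse id 2 below therefore average over both patterns. Cells of an embryo normally share their sex chromosomes, so mouse id 2 is read here as cells of more than 1 embryo. Spread within it is then not spread within a single embryo. For mouse ids 1 and 3 these values do not settle the question.

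The identity of the cells was checked against markers of blastomeres. Pou5f1, Tfap2c, Klf17, Dppa3, Cdh1 and Tead4 were each detected in all 22 cells. So were 48.8% of all genes of the table, so detection alone is a weak check of identity. Of the lists of 20 cumulus and granulosa, 18 sperm, and 18 blood, skin and stromal genes, 1 gene each had a row. These were Gja1, a gap junction gene that embryos also express, at 1174 ± 288 CPM, Odf2 at 32.7 ± 9.02 CPM and Pecam1 at 76.9 ± 26.5 CPM. The defining genes of those cell types were not analysed here.

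**Figure D1:**
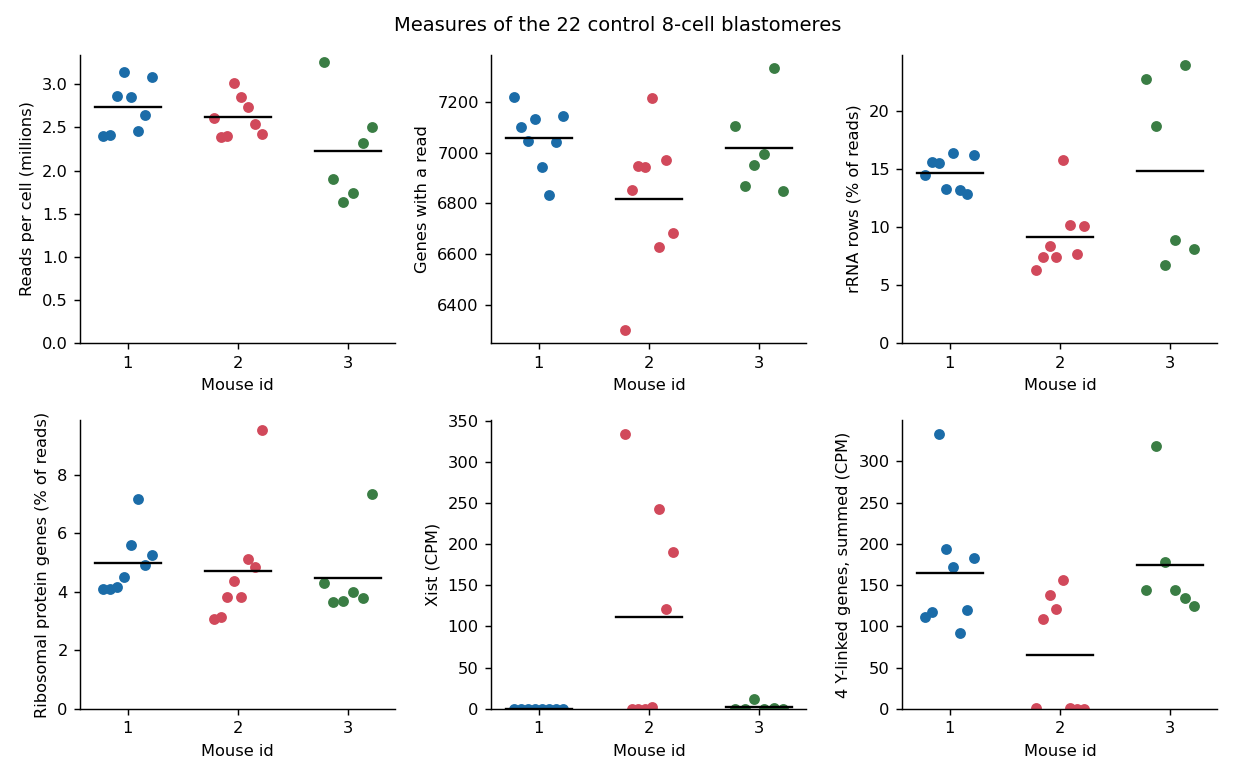
Each point is 1 of the 22 control blastomeres, placed by mouse id (x axis), and each bar is the mean of a mouse id. The panels (y axes) show reads per cell, genes with at least 1 read, ribosomal RNA rows and ribosomal protein genes as percent of reads, Xist in CPM and the summed CPM of 4 Y-linked genes. Mouse id 2 splits into 4 cells with Xist at 121 CPM or more and 4 cells with Y-linked sums of 109 CPM or more.

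Reads were concentrated in few genes. The 10 most abundant genes held 18.1% of reads, the top 50 held 26.6% and the top 500 held 53.5%. Protein-coding genes made up 7608 of the rows and 85.8% of reads. The ribosomal RNA row CT010467.1 alone took 10.7% ± 3.18 of reads, with a range of 4.93% to 21.2% over cells. The 16 genes of the mitochondrial chromosome took 6.02% of reads, and the 232 X-linked genes took 2.21%.

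Among nuclear protein-coding genes, the highest level per kb belonged to Dppa3 (Stella), a maternal factor that protects the maternal genome from demethylation. It stood at 5112 ± 587 CPM per kb and 4560 ± 524 CPM. Over cells its lowest, median and highest values were 2619, 3986 and 9989 CPM. Every cell held it, and the highest was cell H2.

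Alppl2, an alkaline phosphatase gene, had 3530 ± 686 CPM per kb. It was the nuclear protein-coding gene with the most reads, at 7964 ± 1549 CPM, with cells between 3679 and 12898 around a median of 8304. The chaperone gene Hsp90ab1 had 2038 ± 84.4 CPM per kb and 6112 ± 253 CPM, and its cells stayed between 4463 and 7871 CPM. Relative to their medians, the cells of Hsp90ab1 lay closer together than those of Dppa3 and Alppl2. Rplp0, a ribosomal stalk protein gene, had 1662 ± 34.7 CPM per kb, and Gcsh, a subunit of the glycine cleavage system, had 1390 ± 157 CPM per kb.

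Several other genes among the 30 with the most reads encode enzymes. Isyna1, which makes inositol phosphate from glucose 6-phosphate, had 1126 ± 315 CPM per kb and 2743 ± 767 CPM. Impdh2, the rate-limiting enzyme of guanine nucleotide synthesis, had 842 ± 102 CPM per kb and 2591 ± 313 CPM. Gpd1l, a relative of glycerol 3-phosphate dehydrogenase, and the lysosomal protease gene Ctsl had 3388 ± 894 and 3314 ± 768 CPM. Fbxo15, long used as a reporter of pluripotent cells, had 2556 ± 280.2 CPM. Each was detected in all 22 cells.

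Some rows of the top 20 per kb are uncertain. Gm11517, Gm12617 and Gm5612 are processed pseudogenes, at 3081 ± 518, 2648 ± 182 and 1555 ± 456 CPM per kb. Reads of near-identical copies can be assigned to either copy, and the same holds for parent genes such as Gapdh at 37.4 ± 17.8 CPM and Tuba1b at 12.6 ± 5.7 CPM. Their places among other genes, in the top 20 and in the medians of lists that hold them, carry the same uncertainty.

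**Figure D2:**
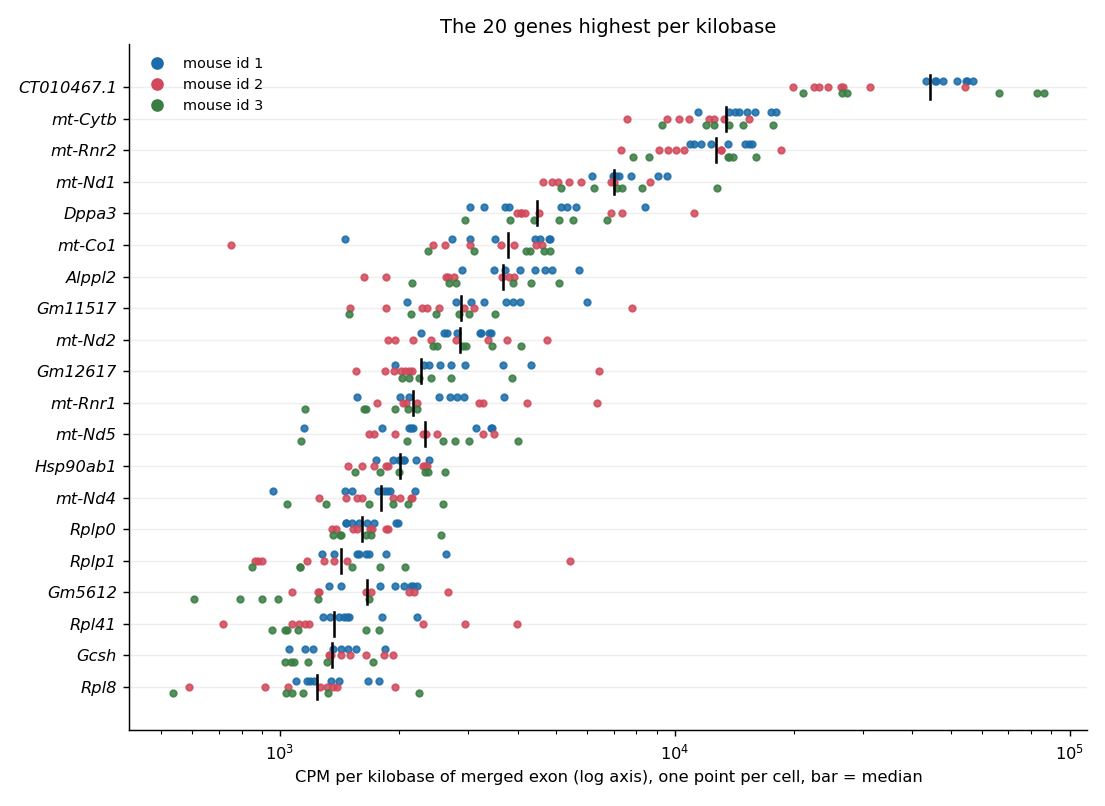
The 20 genes with the highest mean CPM per kb of merged exon (y axis) and their value in each of the 22 cells (x axis, log scale), coloured by mouse id, with the median as a bar. CT010467.1, a ribosomal RNA row, and mitochondrial rows lead, and Dppa3 at 5112 and Alppl2 at 3530 CPM per kb stand first among nuclear protein-coding genes.

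Of 48 listed maternal oocyte transcripts, 20 had values. Of these, 13 (65%) stood below 20 CPM, against 28.95% of all genes of the table (2283 genes), while 5 (25%) reached 100 CPM, against 25.3%. Their median level of 9.11 CPM per kb was near that of the table, 9.58. Of the 20, 6 (30%) were detected in all cells, against 48.8% of all genes of the table. They summed to 0.545% ± 0.0567 of reads, most of it Dppa3. The next per kb was Khdc3, a member of the subcortical maternal complex, at 76.2 CPM per kb and 156 ± 95 CPM. Its cells ranged from 34.2 to 495 CPM, and the means were 156, 61.2 and 251 CPM in mouse ids 1, 2 and 3, with overlapping cells.

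Zp3, which encodes a coat protein of the egg, was read in 22 cells at 80.3 ± 49.9 CPM, with a lowest value of 6.4 and a highest of 269 CPM. The egg coat gene Zp2 was found in 7 cells at 5.98 ± 5.75 CPM. The oocyte growth factor genes Gdf9 and Bmp15 were detected in 10 and 14 cells, at 13.7 ± 6.76 and 8.69 ± 2.93 CPM. Nlrp5 (Mater), needed for development past the 2-cell stage, was at 4.03 ± 3.1 CPM in 14 cells, and its partner gene Tle6 was at 12.7 ± 7.09 CPM in 17 cells. Slbp, which binds histone mRNA, and Spin1, a chromatin reader, were each read in 22 cells, at 195 ± 36.9 and 122 ± 37.6 CPM. Zp3 and Khdc3 were thus read in every cell, and the other oocyte genes named here, apart from Dppa3, in part of the cells or with functions beyond the oocyte.

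Genes of genome activation at the 2-cell stage had values for 9 of 36 listed members, with 0.181% ± 0.0225 of reads. Obox6, a homeobox gene, made up more of this than any other, at 1048 ± 102 CPM with cells between 376 and 1766. Pramel6 had 382 ± 181 CPM. Tdpoz1, Tdpoz2 and Tdpoz4 belong to a family of similar copies whose reads may be shared, and stood at 13.7 ± 7.28, 15.3 ± 9.05 and 20.3 ± 12.6 CPM.

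Genes activated between the 4-cell stage and the morula were mostly read in every cell. Of 42 listed genes, 32 had values and 27 (84.4%) were detected in all 22 cells, against 48.8% of all genes of the table. Of the 32, 26 (81.2%) reached 100 CPM, against 25.3% of all genes of the table. They summed to 2.48% ± 0.205 of reads, with cells between 1.86% and 3.04%, and their median level was 127 CPM per kb against 9.58 over the table. The list was written with abundant genes of this stage in mind and is no independent measure of it.

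Within it, Timd2 had 789 ± 165 CPM per kb and 2741 ± 573 CPM, and Pdxk, which activates vitamin B6, had 347 ± 69.4 CPM per kb and 1870 ± 375 CPM. Sox15, a SOX transcription factor, had 533 ± 43.2 CPM per kb, with cells between 179 and 818 CPM. Pramel7, known for its part in naive pluripotency, had 596 ± 209 CPM, and its cells spread from 159 to 1457. The nucleolar genes Npm1 and Ncl had 2018 ± 169 and 1714 ± 246 CPM. No cell lacked any of these genes.

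Genes of pluripotency and the inner cell mass had values for 27 of 35 members. Of these, 16 (59.3%) were found in all cells, against 48.8% of all genes of the table. Together the 27 took 0.544% ± 0.0704 of reads. Per kb the order was led by Dppa5a at 681 ± 148 CPM per kb and Dppa4 at 269 ± 31.9, followed by Tdgf1 (Cripto, a Nodal co-receptor) at 193 ± 70.4 and Spic at 189.9 ± 32.4. Taken within mouse ids, Tdgf1 minus Spic was 3.12 ± 84.99 CPM per kb (SD, n = 3), within its spread.

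Pou5f1 (Oct4), the central pluripotency factor, was at 221 ± 91.8 CPM with a lowest, median and highest cell of 44.4, 208 and 451. Its means were 184, 154 and 326 CPM in mouse ids 1, 2 and 3, and the cells of the mouse ids overlapped. Klf5, a Krüppel-like factor that acts in both first lineages, had 522 ± 167 CPM, from 65.2 to 846 over cells. Sall4 had 448 ± 91 CPM and Nr5a2 (Lrh-1), a nuclear receptor of early embryos, had 142 ± 45.9 CPM, each in 22 cells.

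Nanog, which later marks the epiblast, had 9.2 ± 7.37 CPM per kb, against 98.4 ± 40.8 for Pou5f1. It was read in 20 cells, with a median cell of 10.5 CPM and a highest of 129. Klf2 and Klf4 were read in 21 and 20 cells at 21.4 ± 2.27 and 18.2 ± 9.65 CPM. Fgf4, the ligand that later drives primitive endoderm, was at 11.5 ± 8.54 CPM in 16 cells, and Gdf3 was read in 10 cells. The median gene of the table stood at 9.58 CPM per kb and was read in 21 cells, and 48.8% of all genes of the table were read in all cells. Nanog and Klf2, at 9.2 and 11.6 CPM per kb, were thus near the median gene. Klf4, Fgf4 and Gdf3 had lower means, at 5.96, 3.58 and 5.66 CPM per kb. Absence from part of the cells was common in the table and alone does not set these genes apart.

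Tbx3 and Tfcp2l1 varied between mouse ids. Tbx3, a T-box factor of naive pluripotency, averaged 472, 215 and 742 CPM in mouse ids 1, 2 and 3, with cells from 86 to 1046 CPM. Tfcp2l1 averaged 111, 47.8 and 253 CPM in the same order, with cells from 4.18 to 414 CPM. Both were highest on average in mouse id 3 and lowest in mouse id 2, and the cells of the mouse ids overlapped.

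Trophectoderm genes had values for 17 of 28 members and took 0.27% ± 0.0048 of reads. Of the 17, 6 (35.3%) were detected in all cells, against 48.8% of all genes of the table. Tead4, the TEAD factor needed to start the trophectoderm programme, stood at 209.9 ± 12.5 CPM per kb and 755 ± 44.9 CPM. Its lowest, median and highest cells had 194, 715 and 1410 CPM, and its means were 806, 720.4 and 739 CPM in mouse ids 1, 2 and 3. The means of the mouse ids thus lay close together, with a wide range between cells. Cldn4, a tight junction gene, had 222 ± 64.1 CPM per kb and Tfap2c, an AP-2 factor that acts on cell polarity, had 43.5 ± 12.9.

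Later trophectoderm genes were read in part of the cells. Gata3, a trophectoderm factor, was read in 18 cells at 44.6 ± 33.3 CPM, with a median cell of 19.1 and a highest of 227. It was detected in 7 of 8 cells of mouse id 1, 8 of 8 of mouse id 2 and 3 of 6 of mouse id 3. Krt18, a keratin of the outer epithelium, was read in 12 cells, of which 7 came from mouse id 1, 5 from mouse id 2 and 0 from mouse id 3. Krt18 reached 282 CPM in its highest cell, and its partner keratin Krt8 reached 231 CPM and was read in 17 cells. The cells of mouse id 3 were thus without a Krt18 read and averaged 7.99 CPM of Krt8. Hand1, a trophoblast factor, averaged 69.9, 212 and 58.9 CPM in mouse ids 1, 2 and 3, and overlapped between them.

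Of 18 primitive endoderm genes 4 had values. Gata6, which starts that lineage, was detected in 22 cells at 131 ± 41.3 CPM, from 10.7 to 337 over cells. Gata4 was detected in 20 cells at 67.1 ± 27.5 CPM. Per kb, Gata6 stood at 20.1 ± 6.35, Gata4 at 17.2 ± 7.05 and Nanog at 9.2 ± 7.37 CPM per kb. Within mouse ids 1, 2 and 3, Gata4 exceeded Nanog by 8.71, 7.68 and 7.56 CPM per kb, a mean difference of 7.98 ± 0.634 (SD, n = 3) that was larger than its spread. Gata6 minus Gata4 was 2.96 ± 10.4 CPM per kb (SD, n = 3), within its spread and with Gata6 higher in 2 of 3 mouse ids.

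Pairs of the 20 lineage genes drawn below were compared over the 22 cells on log2(CPM + 1) after the mean of each mouse id was removed. The 190 pairs had a median Pearson's r of 0.0720. The highest were Yap1 with Krt8 at 0.727 and Krt18 with Krt8 at 0.669, and the lowest were Nr5a2 with Krt18 at -0.665 and Sox15 with Gata4 at -0.585. The points share library preparation and the scaling to total reads, and the pairs are the extremes of all pairs. Several of these genes are at 0 in many cells, so the values of r are descriptions without a test. Removing mouse id means leaves both sex-linked patterns inside mouse id 2. Krt18 stood at 122.6 to 282 CPM in its cells B2, C2, D2 and E2, and at 0 to 22.08 CPM in A2, F2, G2 and H2. Nr5a2 stood at 37.44 to 72.78 CPM in the former and 100.3 to 168.7 CPM in the latter. Yap1, Krt8, Sox15 and Gata4 overlapped between these sets of cells. The part of this split in the values of r was not tested.

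**Figure D3:**
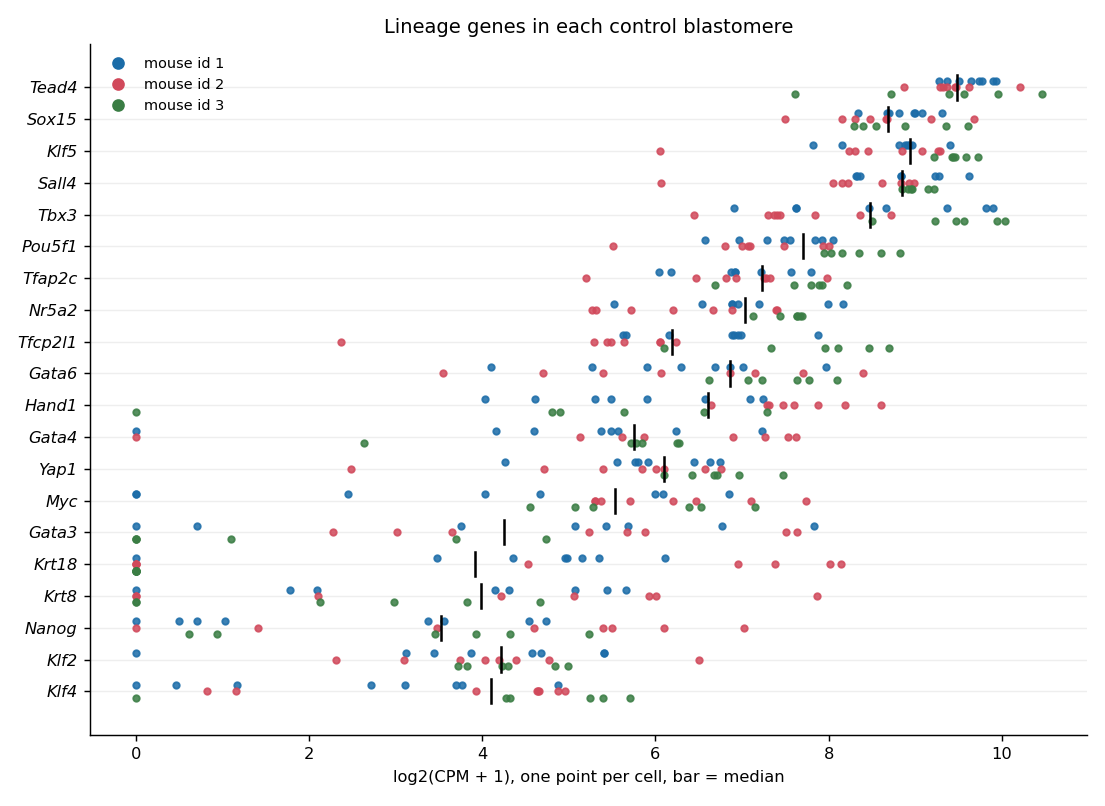
Levels of 20 lineage genes (y axis) as log2(CPM + 1) (x axis) in each of the 22 cells, coloured by mouse id, with the median over cells as a bar. Tead4, Sox15, Klf5, Sall4, Tbx3 and Pou5f1 have reads in all cells, while Krt18 is at 0 in all 6 cells of mouse id 3 and Gata3 is read in 18 cells.

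Of 23 Hippo pathway genes, 15 had values. Nf2 (Merlin), which activates the LATS kinases, had 27.3 ± 3.99 CPM per kb, and the kinase gene Taok1 had 27.1 ± 0.382. The coactivators Yap1 and Wwtr1 (Taz) were each in 22 cells, at 8.36 ± 3.05 and 19.2 ± 7.42 CPM per kb. The kinases Lats1 and Lats2 were each read in 16 cells, at 1.68 ± 0.901 and 2.77 ± 1.58 CPM per kb. Tead4 was the highest of the list per kb and the LATS kinases were among the lowest.

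Genes of compaction, adhesion and polarity had values for 35 of 40 members. Of these, 19 (54.3%) were in all cells, near the 48.8% of all genes of the table. Cdh1 (E-cadherin), the adhesion molecule of compaction, had 164 ± 19.3 CPM, with cells between 20.6 and 438. F11r (JAM-A) had 156 ± 25.3 CPM per kb, the small GTPase Cdc42 had 128 ± 9.08, the apical polarity gene Crb3 had 114 ± 16.2 and Cdh1 had 35.8 ± 4.22. The polarity genes Pard6b and Prkci were read in 13 and 14 cells, at 6.09 ± 3.93 and 1.51 ± 1.55 CPM per kb.

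The 7 measured respiratory chain genes of the mitochondrial chromosome took 3.81% ± 0.339 of reads, led per kb by mt-Cytb at 13307 ± 1813 and mt-Nd1 at 7161 ± 969 CPM per kb. Of the 74 nuclear OXPHOS subunit genes, 68 (91.9%) were in all cells, against 48.8% of all genes of the table. The 74 took 1.05% ± 0.0271 of reads. Among them Cox8a had 616 ± 68.8 CPM per kb and Atp5b, the catalytic subunit of ATP synthase, had 354 ± 21.7.

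Pyruvate dehydrogenase and the TCA cycle had values for 34 of 40 members and took 0.554% ± 0.0204 of reads. Pdp2, a phosphatase that switches pyruvate dehydrogenase on, was the highest per kb at 337 ± 45.1 CPM per kb, with cells from 798 to 3293 CPM around a mean of 1916 ± 256. The related phosphatase gene Pdp1 was read in 6 cells at 2.05 ± 0.795 CPM per kb. The subunit genes Pdha1 and Pdhb had 82.2 ± 28.5 and 86.5 ± 3.72 CPM per kb, Mdh2 had 128 ± 22.5 and citrate synthase (Cs) had 46.7 ± 2.79. Of these, Pdp2, Pdha1, Pdhb, Mdh2 and Cs were read in all 22 cells, whereas the cytosolic enzyme gene Mdh1 was read in 11.

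Glycolysis genes had values for 16 of 24 members and took 0.132% ± 0.0187 of reads. Of the 16, 8 (50%) were in all cells, near the 48.8% of all genes of the table. Bsg, a chaperone of lactate and pyruvate carriers, and Tigar, a phosphatase that lowers glycolytic flux, were highest per kb at 111 ± 35.4 and 100.1 ± 12 CPM per kb. Tigar cells lay between 227 and 578 CPM. Both act beside glycolysis rather than as enzymes of it. Hexokinase 2 (Hk2) averaged 121, 129 and 25.8 CPM in mouse ids 1, 2 and 3, and the carrier Slc16a1 (Mct1) averaged 109, 166 and 29.6. Phosphofructokinase Pfkl was read in 10 cells at 7.1 ± 6.15 CPM. The median glycolysis gene stood at 10.04 CPM per kb, the median gene of the pyruvate dehydrogenase and TCA cycle list at 23.8 and the median gene of the table at 9.58. The glycolysis median lies between Gapdh, whose level is uncertain as stated above, and Slc2a3.

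The glucose transporter Slc2a3 (Glut3) had a median cell of 34.4 CPM and a highest of 638 CPM, in cell B2. Its means were 49.7, 154 and 36 CPM in mouse ids 1, 2 and 3. Among genes of fatty acid oxidation and lipids (24 of 30 with values, 0.193% ± 0.0219 of reads), Acadm and Acadl, which start the oxidation of medium- and long-chain fatty acids, had 91 ± 7.1 and 117 ± 2.78 CPM per kb. Acsl4, a long-chain acyl-CoA ligase, averaged 204, 572 and 184 CPM in mouse ids 1, 2 and 3, with cells from 48.8 to 1223 that overlapped between them.

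**Figure D4:**
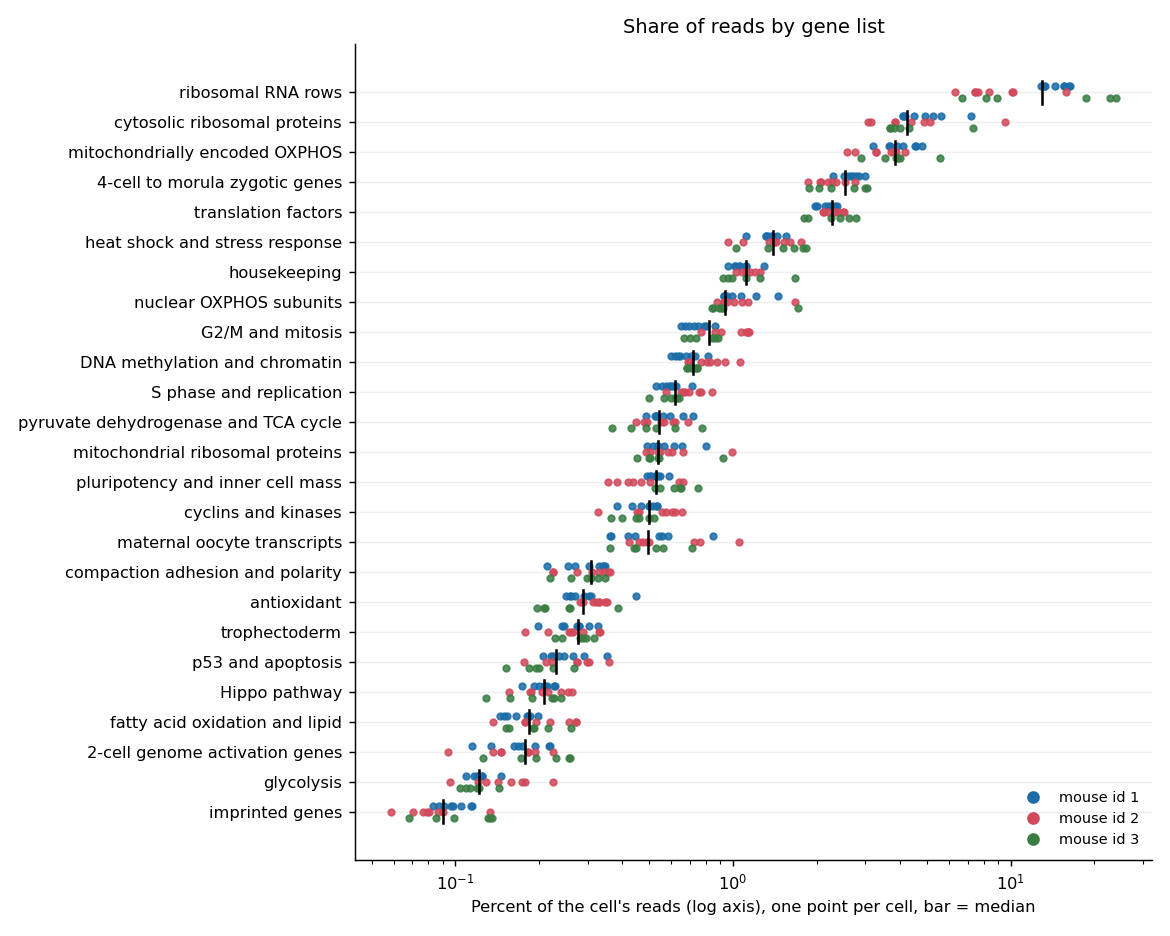
Share of each cell's reads (x axis, percent, log scale) taken by each gene list (y axis) in the 22 cells, coloured by mouse id, with the median as a bar. The 4-cell to morula list has cells between 1.86% and 3.04%, and cells range from 3.06% to 9.54% for cytosolic ribosomal protein genes.

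All 44 listed G2/M and mitosis genes had values, 33 (75%) of them in every cell, with 0.846% ± 0.147 of reads. The 40 of 42 S phase and replication genes with values took 0.63% ± 0.0617, and 28 (70%) were in every cell. Over all genes of the table the share read in every cell was 48.8%. Cdc20, an activator of the anaphase-promoting complex, led the G2/M list at 623 ± 269 CPM per kb. Its lowest, median and highest cells had 445, 1038 and 2540 CPM. The means of Cdc20 were 999, 1726 and 764 CPM in mouse ids 1, 2 and 3. Next came the kinase gene Aurka at 301 ± 98.4, Ube2c, the ubiquitin-conjugating enzyme of that complex, at 253 ± 63 and Pttg1 (securin) at 129.9 ± 20.6 CPM per kb. Aurka averaged 546, 1034 and 703 CPM in mouse ids 1, 2 and 3, and Ube2c averaged 728, 470.1 and 774 CPM. Cdc20 and Aurka were thus highest in mouse id 2, and Ube2c was lowest there.

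Among cyclins and their kinases, Ccnb1 had 255 ± 44.5, Ccna2 had 219 ± 24.4 and Ccne1 had 215 ± 30.7 CPM per kb, all in 22 cells. The D-type cyclins were read less: Ccnd3 in 22 cells at 6.82 ± 2.84, Ccnd1 in 16 at 2.46 ± 2.42 and Ccnd2 in 6 at 0.608 ± 0.614 CPM per kb. Rb1, the retinoblastoma gene, was read in 6 cells at 0.951 ± 0.824 CPM per kb. Cdkn1a (p21), a p53 target that inhibits cyclin-dependent kinases, had 314 ± 124 CPM in 22 cells, between 75.8 and 702. Of the replication genes, Rrm2, which makes deoxynucleotides, had 263 ± 64 CPM per kb and Gmnn (geminin), which blocks relicensing, had 231 ± 51.3.

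The S phase and G2/M shares had a Pearson's r of 0.773 over the 22 cells, given as a description since both shares have the same reads as denominator. In mouse ids 1, 2 and 3 the S phase share was 0.599%, 0.701% and 0.59%, and the G2/M share was 0.743%, 1.01% and 0.782%. Both were highest in mouse id 2, which also had the lowest share of ribosomal RNA rows, 9.16% against 14.7% and 14.9%. The part of that share, which enters the denominator, was not tested.

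Promoters of mitotic genes are known for the CCAAT box, the site of the factor NF-Y. The letters CCAAT were searched on both strands (read as ATTGG on the other) in RefSeq promoter windows of 300 bases (250 before to 50 after the first listed start, GRCm38.p6). They occurred in 28 of 38 matched G2/M promoters (73.7%) and in 22 of 32 S phase promoters (68.8%). The share was 39.7% over the 6219 matched genes of the table and 37.9% over all 27025 promoters. In the 4-cell to morula list it was 5 of 23 (21.7%). A match describes letters and is not a shown binding site.

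The 120 bases before the start are shown for 5 mitotic genes read in all 22 cells, because these letters recur in them. They run 5′ to 3′ on the gene's strand with CCAAT or ATTGG in capitals. They lie at chr4:118437344-118437463 (minus strand, Cdc20), chr2:172370571-172370690 (minus, Aurka), chr2:164769809-164769928 (plus, Ube2c), chr4:124936918-124937037 (minus, Cdca8) and chr7:122159315-122159434 (plus, Plk1). Cdca8, a subunit of the chromosomal passenger complex, had 303 ± 45.5 CPM and the kinase gene Plk1 had 195 ± 75.8.
Cdc20: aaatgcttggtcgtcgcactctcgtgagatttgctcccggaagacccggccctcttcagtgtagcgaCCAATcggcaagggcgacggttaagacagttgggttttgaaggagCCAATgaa
Aurka: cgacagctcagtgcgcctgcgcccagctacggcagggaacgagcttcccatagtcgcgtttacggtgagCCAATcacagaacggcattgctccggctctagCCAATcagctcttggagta
Ube2c: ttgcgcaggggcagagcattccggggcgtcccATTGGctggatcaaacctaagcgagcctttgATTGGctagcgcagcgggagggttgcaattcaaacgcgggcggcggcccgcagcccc
Cdca8: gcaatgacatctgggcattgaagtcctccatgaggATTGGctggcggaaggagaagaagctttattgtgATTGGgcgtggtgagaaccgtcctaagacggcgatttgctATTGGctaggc
Plk1: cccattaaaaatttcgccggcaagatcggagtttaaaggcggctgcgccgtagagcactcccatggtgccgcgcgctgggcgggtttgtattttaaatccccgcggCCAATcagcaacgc

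Cdc20, Aurka and Ube2c, the 3 genes of the G2/M list highest per kb, each carried the letters 2 times in this stretch. Cdca8 carried them 3 times and Plk1 1 time. Pttg1 and Birc5 (survivin), at 259.8 ± 41.2 and 243 ± 54.8 CPM, had none in the whole window. In ribosomal protein promoters CCAAT was found in 19 of 62 (30.6%). The letters CCGGAAG, a core that ETS factors bind, searched on both strands, were found in 25 of those 62 (40.3%), against 23.3% of the table's promoters and 9.12% of all promoters.

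Because the study concerns let-7, the microRNA genes that lie inside measured genes were located. Mature microRNAs were not measured by these libraries. Of 1005 RefSeq hairpins, 299 lay on the same strand within 276 measured genes, and 4 of the 12 let-7 and miR-98 hairpins did. Huwe1, an X-linked ubiquitin ligase gene, had 235 ± 47.7 CPM in 22 cells and holds let-7f-2 and miR-98 in introns. Wdr82 had 36.1 ± 8.29 CPM in 21 cells and holds let-7g. Spaca6 had 16.5 ± 2.58 CPM in 12 cells and holds let-7e in an intron and miR-125a overlapping an annotated exon. Further hosts, chosen after their values were seen, were Smc4, a condensin subunit, at 284 ± 50.3 CPM, with miR-15b and miR-16-2 in introns, and Mcm7, a replicative helicase subunit, at 143 ± 22.5 CPM, with miR-106b in an intron and miR-93 and miR-25 overlapping annotated exons.

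The mature sequences of the microRNAs inside Huwe1, Smc4 and Mcm7, and of let-7e inside Spaca6, are shown with the seed (bases 2 to 8) in capitals. Let-7d is shown beside them, to let their seeds be compared with those of the let-7 members the study used. They lie in GRCm38.p6 at chrX:151912353-151912374 (let-7f, plus strand), chrX:151913229-151913250 (miR-98, plus), chr13:48536078-48536099 (let-7d, minus), chr17:17830366-17830387 (let-7e, plus), chr3:69009775-69009796 (miR-15b, plus), chr3:69009918-69009939 (miR-16, plus), chr5:138165787-138165807 (miR-106b, minus), chr5:138165574-138165596 (miR-93, minus) and chr5:138165332-138165353 (miR-25, minus).
let-7f-5p: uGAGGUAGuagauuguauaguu
miR-98-5p: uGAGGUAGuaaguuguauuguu
let-7d-5p: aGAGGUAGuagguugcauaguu
let-7e-5p: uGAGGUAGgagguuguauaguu
miR-15b-5p: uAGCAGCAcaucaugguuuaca
miR-16-5p: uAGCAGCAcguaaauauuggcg
miR-106b-5p: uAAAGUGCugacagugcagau
miR-93-5p: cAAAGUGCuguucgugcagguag
miR-25-3p: cAUUGCACuugucucggucuga

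The seed GAGGUAG is shared by let-7f, miR-98, let-7d and let-7e, and miR-15b shares its seed with miR-16 and miR-106b with miR-93. Huwe1 averaged 184, 244 and 278 CPM in mouse ids 1, 2 and 3, with cells between 49.3 and 436 CPM. A host transcript does not show that its hairpin is processed. Lin28a, whose protein blocks let-7 maturation, had 67.8 ± 10.6 CPM in 22 cells, Lin28b had 30.02 ± 18.7 CPM in 21 cells, and Trim71, a conserved let-7 target, had 312 ± 117 CPM in 22 cells.

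All 30 translation factor genes and all 84 cytosolic ribosomal protein genes were detected in all 22 cells, against 48.8% of all genes of the table. The translation factors took 2.26% ± 0.0599 of reads, led per kb by Eif5a at 965 ± 139, Eef2 at 707 ± 43.1 and Eef1a1 at 693 ± 45 CPM per kb. The ribosomal protein genes took 4.72% ± 0.259, from 3.06% to 9.54% over cells.

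Cells F1, H2 and F3, 1 of each mouse id, had the highest ribosomal protein shares, 7.19%, 9.54% and 7.34%. The same cells had 1.45%, 1.67% and 1.72% of reads in nuclear OXPHOS genes, against a median over cells of 0.940%. Genes with under 1.5 kb of exon outside the ribosomal and OXPHOS lists held 7.31%, 8.44% and 6.30% of the reads outside ribosomal RNA rows, against a median of 4.46%, and such genes with 6 kb or more held 21.5%, 24.2% and 20.2%, against 27.1%. Over the 22 cells the ribosomal protein share had a Pearson's r of 0.957 with the share of the other short genes and of -0.793 with that of the long genes, as a description of shares of the same libraries. The part of transcript length, RNA quality or amplification in these shares was not tested. Without the 3 cells, which were picked after seeing the data, the ribosomal protein share was 4.2%, the maternal list stood at 0.494% and the 4-cell to morula list at 2.44%.

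Detection followed level. Of the 7886 genes, 3846 (48.8%) were read in all 22 cells and 432 (5.48%) in at most 11. Between 10 and 20 CPM 5.94% of genes were in all cells, between 50 and 100 CPM 79.0%, and from 100 to 1000 CPM 97.6%. All 98 genes at or above 1000 CPM were in every cell. Of the 1994 genes at or above 100 CPM, 45 were missing from at least 1 cell, and the fewest cells for any of them was 18.

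Among genes read in at most 11 cells, 4930550L24Rik, an X-linked gene, had 39.4 CPM in 8 cells. Its highest cell, F3, had 456 CPM. Xist was read in 7 cells. Mael, a piRNA pathway gene, was read in 9 cells and the apoptosis gene Bid in 11. In these libraries the absence of reads does not separate a missing transcript from one lost before amplification.

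Spread between blastomeres was measured as the coefficient of variation (CV) over the 22 cells and as its ratio to the median CV of the 200 genes nearest in mean level. The median CV was 113% at 10 to 20 CPM and 44.7% at 100 to 1000 CPM. Over the 5614 genes with a mean over cells of at least 20 CPM, 51 had a ratio of at least 2, and 46 had a ratio of at most 0.5.

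Several of the highest ratios came from a single very high cell. Snx29, a sorting nexin, had a ratio of 3.87, with 652 CPM in cell A2 and at most 55.4 CPM in the others. Without mouse id 2 its ratio was 0.855. Ccdc6 had a ratio of 3.14, with 2735 CPM in cell A2 against a median of 361 CPM. Sdc4 (syndecan 4) had a ratio of 2.56, was in 22 cells and reached 1527 CPM in cell A1. Plk2, a stress-responsive polo-like kinase gene, was read in 16 cells and reached 636 CPM in cell A1. The ratios of Sdc4 and Plk2 were above 2 within each mouse id, at 3.38, 2.42 and 2.08 for Sdc4 and 3.24, 2.24 and 2.09 for Plk2. Both genes were picked for high spread over these same cells, so this is no separate support. In mouse id 2, Sdc4 stood at 360 to 720 CPM in cells B2, C2, D2 and E2. In A2, F2, G2 and H2 it stood at 22.1 to 108 CPM. The ratio of 2.42 for Sdc4 thus includes the split between the sex-linked patterns.

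Of the 15 highest ratios, 6 had their highest value in cell A2, the cell with the fewest detected genes. The same held for 14 of the 51 genes with a ratio of at least 2. How often A2 was the highest cell over all genes with a ratio is not given here. These counts are thus no sign of a trait of the high-ratio genes. X-linked genes made up 4 of the 15: 4930550L24Rik, Bex1, Xist and Asb12. Bex1 reached 509.5 CPM in cell H2, and Asb12 had 223 and 239 CPM in cells F2 and G2. These are cells with Xist. By contrast, 4930550L24Rik was highest in cell F3, at 456 CPM, and that cell had a Y-linked sum of 125 CPM and no Xist read. Over the 146 X-linked genes with a ratio the median was 1.17.

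Ratios of lineage genes ranged widely. Krt18 had 2.41, Krt8 2.04, Gata3 2.02, Tbx3 1.87, Tfcp2l1 1.7 and Hand1 1.61, while Tead4 had 0.982, Sox15 0.942 and Pou5f1 1.09. The median ratio was 1.38 over the trophectoderm list (14 genes), 1.14 over pluripotency (22 genes) and 1.26 over the p53 list (21 genes). It was 0.813 for the translation factors (30 genes), 0.814 for nuclear OXPHOS (73 genes) and 1.001 over all 5614 genes. Ratios over all cells hold spread between mouse ids, as given above for Krt18, Tbx3 and Tfcp2l1, as well as within them. For Krt18, the spread within mouse id 2 includes the split between the sex-linked patterns given above.

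Among even genes, Hsp90ab1 had a CV of 15.1% and a ratio of 0.447, and the co-chaperone gene Dnajb6 had a CV of 15.7% and a ratio of 0.403, with cells between 294 and 506 CPM. The lowest ratio, 0.246, belonged to Gm8172, a processed pseudogene with 25 ± 1.12 CPM and cells between 12.4 and 36. Of the 15 lowest ratios, 5 were processed pseudogenes, against 25 of the 5614 genes with a ratio, and reads of such rows may belong to a copy elsewhere. Over those 25 rows the median ratio was 0.934, and 15 of the 25 were below 1, against 49.9% of all genes with a ratio. Ndufs5, a complex I subunit gene, had 0.331, Nudt21, a factor of mRNA 3′ end cleavage, had 0.336, and Cycs (cytochrome c) had 0.428. All 15 genes of lowest ratio were below 1 within every mouse id in which they had a ratio. They were picked for low spread over these same cells, so this is no separate support.

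**Figure D5:**
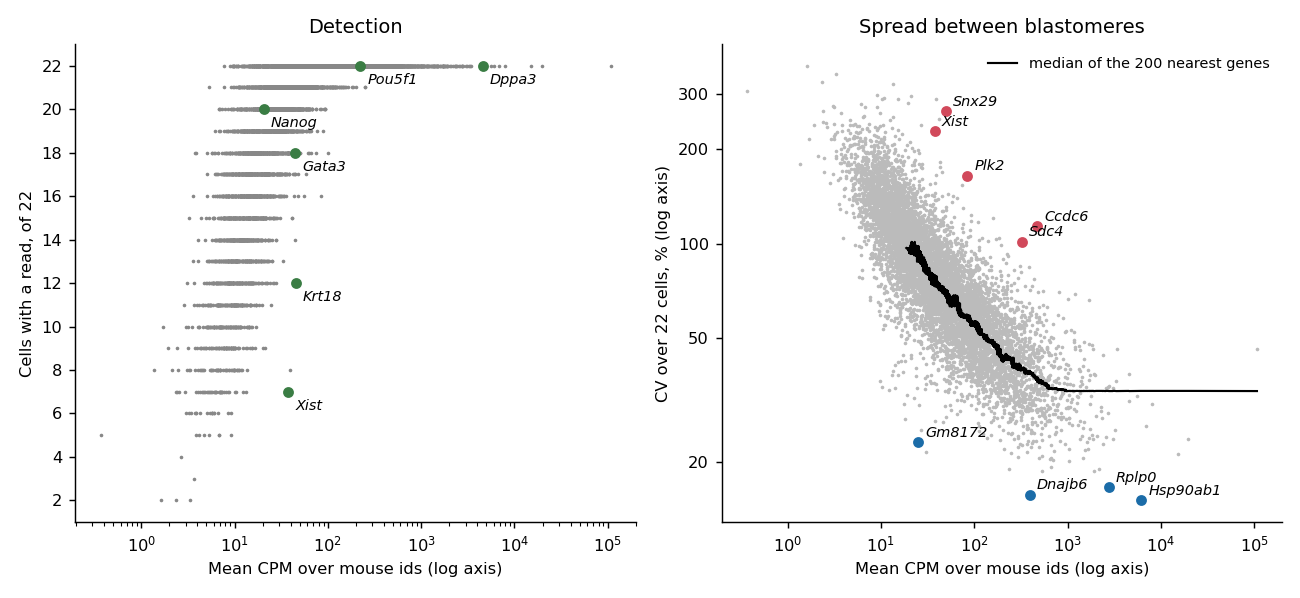
Left, the number of the 22 cells with a read of each gene (y axis) against its mean CPM (x axis, log scale). Right, the CV over cells in percent (y axis, log scale) against mean CPM (x axis, log scale), with the median of the 200 nearest genes as a line. Snx29 and Xist lie far above the line, and Hsp90ab1 at 15.1% and Dnajb6 at 15.7% lie below it.

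For genes at 20 CPM or more, the median SD of log2(CPM + 1) was 1.05 within mouse ids and 0.41 between mouse id means. The former is over single cells and the latter over means of several cells. Averaging lowers an SD, so these values do not compare spread within mouse ids with spread between them. For 9 genes (0.114% of the table) the cells of a mouse id lay all above or all below the other cells. Mouse id 3 was below for Pdxk, the translation factor Eif5b, Mad2l1bp, Exoc3l2, AC132367.1 and Ppp1r16b. Pdxk stood between 1065 and 1602 CPM in mouse id 3, and no other cell was below 1624. Mouse id 3 was above for Rbm47, an RNA-binding protein gene, with cells of 291 to 830.4 CPM against at most 274 elsewhere. Mouse id 2 was above for Nop58, a nucleolar protein gene, with cells of 1012 to 1320 CPM against at most 994. Mouse id 2 was below for Mrpl24, with reads in 2 of its 8 cells against all cells of the other mouse ids.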

How the data were processed

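Counts of reads per gene and cell were deposited by the authors; per the submitters' processing notes STAR and GRCm38.p6 were used, and the counting program is not given in the sources used here. The authors also deposited RPKM values, which were not used for levels, since the largest over the smallest gene length they imply had a median of 113.9 over 2716 genes. Cells were grouped by treatment and mouse id per the labels. Gene names and merged exon lengths came from GENCODE M21 (7884 of 7886 IDs matched). CPM was computed over all rows, and 0 columns belonged to no sample. Python 3.11.15, pandas 2.3.3 and numpy 2.4.6 were used, with edgeR 4.0.16 in R 4.3.3 for the TMM scaling alternative. The spread computation was tested on simulated data. No test between groups was made. The members and lists were chosen with earlier results of these data known. Named genes were the 30 highest by CPM and 20 by CPM per kb, the 8 highest per kb and the 4 in fewest cells of each list, the 15 highest and 15 lowest spread ratios, the 15 highest of genes in at most 11 cells, up to 10 genes separating mouse ids, and Xist and Y-linked genes; others named were chosen after their values were seen. Alternatives were other detection minimums, scalings, length measures, spread measures, thinned reads (seed 1) and leaving out each mouse id. Nothing says that mouse ids are independent embryos, and mouse id 2 held both sex-linked patterns, so SDs cover the spread between these samples.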

Additional observations from a re-analysis of the deposited data

Results flagged for a closer look

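Of 101 groups of cells (34 measures by mouse id), 20 had a cell whose gap to the nearest other cell of its mouse id was large for the group's range by Dixon's criterion at the 95% level. The criterion is set to mark about 1 in 20 groups by chance when values are independent and normally distributed. The measures here overlap and come from the same cells, so that rate is no yardstick for the 20 groups marked. Cell F3 had 7.34% of reads in cytosolic ribosomal protein genes, 1.72% in nuclear OXPHOS genes, 0.924% in mitochondrial ribosomal protein genes, 0.386% in antioxidant genes and the lowest share of long genes, 20.2%. Cell H2 had 9.54% in cytosolic ribosomal protein genes, 1.67% in nuclear OXPHOS genes, 0.995% in mitochondrial ribosomal protein genes and 8.44% in short genes. Cell F1 had 7.31% in short genes, 0.850% in maternal transcripts, 0.447% in antioxidant genes, 1.29% in housekeeping genes and 0.0165% in replication-dependent histones.

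Single measures stood apart in other cells. Cell C3 had Xist at 11.6 CPM beside Y-linked reads, and cells C1 and B3 had Y-linked sums of 333 and 319 CPM. Cell B1 had 0.146% in glycolysis genes, cell A2 had 0.133% in imprinted genes, and cell E2 had 15.8% in ribosomal RNA rows.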

How the results depend on the processing

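No paired analysis was possible because no groups of samples were compared. The differences printed between Gata6, Gata4 and Nanog and between Tdgf1 and Spic were taken within mouse ids. A minimum of 5 or 10 reads gave 6697 and 6501 detected genes per cell, and 740 and 1004 genes in at most 11 cells. Thinning set every cell to 1635385 reads. Of the 20 genes highest per kb, 11 were shared with no length scaling. Leaving out the ribosomal RNA rows shifted the median gene by 0.19 (log2) and gave shares of 0.6248% for maternal, 2.84% for 4-cell to morula, 0.626% for pluripotency, 0.311% for trophectoderm, 0.151% for glycolysis, 0.635% for pyruvate dehydrogenase and TCA cycle, 0.723% for S phase and 5.43% for ribosomal protein genes. With that setting 105 of 338 named genes moved by more than their SD, and 0 did under the 5 other settings. Leaving out a mouse id, or weighing all cells the same, cannot move a mean of 3 mouse ids by more than their SD. For those settings the 0 was thus fixed in advance and is no sign of stability. Without the 3 cells highest in ribosomal protein share, an alternative chosen after seeing the data, that share was 4.2%, and 94 genes had a spread ratio of at most 0.5. With the SD of log2(CPM + 1), 95 genes had a ratio of at least 2 and 196 of at most 0.5, and at 100 CPM or more these were 18 and 11. Leaving out a mouse id gave 44 to 68 and 65 to 74 genes. Within mouse ids 1, 2 and 3, also chosen after seeing the data, 72, 114 and 87 genes had a ratio of at least 2, and 192, 217 and 272 of at most 0.5. Counts of genes past these ratios therefore depend on the setting. Reads include amplification copies, so depth does not give the number of molecules.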

Other observations

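Of 27 antioxidant genes 21 had values, 14 (66.7%) of them in all cells, against 48.8% of all genes of the table. Gpx1 and Prdx6, which reduce peroxides, had 126 ± 9.8 and 125 ± 26.5 CPM per kb, and Sod1 had 107 ± 52.8. Nfe2l2 (Nrf2), a factor that activates many such genes, was read in 11 cells at 16.8 ± 11.4 CPM, and Hmox1 in 8 cells. Of 27 heat shock and stress genes 21 had values, 17 (81.0%) of them in all cells, with 1.42% ± 0.088 of reads. Of 25 p53 and apoptosis genes 21 had values, and Bax, Mdm2 and Ccng1 were read in 22, 22 and 21 cells at 98.6 ± 35.7, 108 ± 24.7 and 142 ± 51.2 CPM.

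The chromatin list had values for 40 of 43 genes. The variant histone genes H3f3b and H2afz had 506 ± 206 and 209 ± 19.7 CPM per kb. The 4 replication-dependent histone genes with values took 0.00659% of reads. Their mRNAs carry no poly(A) tail, on which Smart-seq2 primes, and the part of this in their share was not tested. Dnmt3a and Dnmt3b, which set DNA methylation, were read in 22 and 21 cells at 56.8 ± 4.23 and 39.2 ± 12.9 CPM, and Dnmt1 in 18 at 22.8 ± 18.6 CPM. Of 27 imprinted genes 12 had values, led per kb by Igf2r at 52.9 ± 13.4 and Phlda2 at 48.7 ± 28.2 CPM per kb.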
